A study of Oryza sativa with 4 samples.

Results

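Leaves of rice seedlings that carry an RNA interference construct against *OsABA8ox3* were compared with wild-type leaves before any osmotic stress was applied. The comparison rests on 2 of the 4 arrays of the series, chosen by their titles, the RNAi array at 0 h and the WT array at 0 h. Both plants were *Oryza sativa* cultivar ZH11 at the 4-leaf seedling stage, grown in the same greenhouse regime, and neither had been exposed to polyethylene glycol (PEG), a polymer that draws water from the root medium. The other 2 arrays hold the same genotypes (RNAi PEG 2 h and WT PEG 2 h) after 2 h in 20% PEG, and they share no array with the 0 h comparison. According to the methods, the RNAi plants are RNAi-9, a hygromycin-selected line with a single insertion that descends from 1 transformant, so every difference below is that of 1 line. In the methods, WT stands for ZH11 transformed with the pYL vector, which is named beside ZH11 itself, while the array title says only wild type. Each condition has 1 array and no replicate among the data used here, so sizes of difference are described and no test was made.

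Abscisic acid (ABA) is the hormone that closes stomata and switches on protective genes when water is short. Its level is set by synthesis from carotenoids and by breakdown, and breakdown starts with ABA hydroxylases of the CYP707A group of cytochrome P450 enzymes, which *OsABA8ox3* belongs to. ABA is sensed by PYL receptors, which inhibit protein phosphatases 2C and so free SAPK kinases to activate bZIP transcription factors. Late embryogenesis abundant (LEA) proteins and dehydrins are typical products of their target genes.

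Signals are log2 values of the array maker's MAS5 algorithm, and a difference of 1 on this scale is 2-fold. Each array had been scaled so that its trimmed mean linear signal was the same (500.1 on all 4 arrays, after dropping the lowest and highest 2% of values). Low signals on this kind of array scatter widely, so values under 6 were raised to 6 before differences were taken, and a probe set or gene was called at over 2-fold. Signals of at least 6 were found for 24745 probe sets on the RNAi 0 h array and for 24261 on the WT 0 h array, of 57258 rice probe sets. The hybridization controls, bacterial and phage transcripts added in fixed amounts, averaged 11.93 on the RNAi 0 h array and 11.88 on the WT 0 h array. The 3' minus 5' signal of the rice Gapdh control, a log2 measure of RNA integrity, was 2.74 in RNAi 0 h and 2.64 in WT 0 h. For the rice actin control it was 4.51 in RNAi 0 h and 4.74 in WT 0 h, and for rice ubiquitin 0.34 and 0.21. The 3' end was thus the brighter on both arrays, and strongly so for actin and Gapdh. Genes with several probe sets took the mean of these. In whole leaves, fewer cells of a type and less RNA per cell cannot be told apart.

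The labelled tissue was checked with marker genes. Of 15 leaf markers, 14 were above 6 on both 0 h arrays, with *rca*, the gene for Rubisco activase, at 15.42 in RNAi 0 h and 15.30 in WT 0 h, and their summed linear signal was 227871 in RNAi 0 h and 215925 in WT 0 h. Of 14 root markers, 6 were above 6 on each array, with a summed signal of 10107 in RNAi 0 h and 10269 in WT 0 h. Among the root markers, *tom1*, a transporter gene for iron-binding mugineic acids, had 12.73 in RNAi 0 h and 12.91 in WT 0 h, *NAAT1* had 10.59 in RNAi 0 h and 9.63 in WT 0 h, and the silicon channel gene *Lsi1* had 10.17 in RNAi 0 h and 10.07 in WT 0 h. The silicon efflux gene *Lsi2* was at the bottom of the scale (1.31 in RNAi 0 h and 0 in WT 0 h). Of 25 panicle and seed markers, 7 were above 6 in RNAi 0 h and 8 in WT 0 h, with a summed signal of 7022 in RNAi 0 h and 5118 in WT 0 h. The members of this list that were detected include *GLB1*, a seed globulin gene, with 10.73 in RNAi 0 h and 11.10 in WT 0 h, and the glutelin gene *GLUA-2*, with 8.22 in RNAi 0 h and 8.08 in WT 0 h, whereas the glutelin genes *GluC* and *GLUA-1* did not exceed 1.04 on either 0 h array.

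No probe set could be tied to the silenced gene through the gene names used here, so its own level on the arrays was not analysed. By PCR, the paper reports that RNAi-9 had a significantly reduced level of this gene. A single probe set for a foreign sequence separated the genotypes. Of 64 probe sets whose identifier starts with RPTR, the array maker's prefix for reporter sequences, RPTR-Os-K01193-1_at had a signal of 14.81 in RNAi 0 h and 14.85 in RNAi PEG 2 h, against 0.79 in WT 0 h and 3.05 in WT PEG 2 h. The other 63 stayed at or below 7.02 on all 4 arrays. The identity of the sequence behind RPTR-Os-K01193-1_at is not annotated in the sources used here. It was the probe set with the highest difference of all, 8.81 after the floor, and both RNAi arrays were far above both WT arrays.

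In all, 18 probe sets had a signal of at least 8 on both RNAi arrays and under 6 on both WT arrays, and 0 had the opposite pattern. Besides the reporter they include Os.20851.1.A1_x_at, which had 12.67 in RNAi 0 h and 10.41 in RNAi PEG 2 h, against 4.15 in WT 0 h and 4.14 in WT PEG 2 h. Both probe sets of LOC4331398 belong to this class. Os.43929.1.S1_s_at had 11.24 in RNAi 0 h and 9.95 in RNAi PEG 2 h, against 4.28 in WT 0 h and 3.39 in WT PEG 2 h. OsAffx.17314.1.S1_at had 10.80 in RNAi 0 h and 10.75 in RNAi PEG 2 h, against 2.78 in WT 0 h and 0.56 in WT PEG 2 h. Most of these probe sets have no gene name, and the only named gene among them is *HSP26.7*. Beyond this class, the unnamed probe set Os.55261.1.S1_at had 12.54 in RNAi 0 h and 6.93 in WT 0 h, and it stayed apart at 2 h with 9.55 in RNAi PEG 2 h and 5.52 in WT PEG 2 h. LOC4351887 had 11.27 in RNAi 0 h and 7.25 in WT 0 h, and 13.89 in RNAi PEG 2 h and 8.82 in WT PEG 2 h. On the lower side, Os.19861.1.S1_at had 8.97 in RNAi 0 h and 12.62 in WT 0 h, with 9.14 in RNAi PEG 2 h and 11.61 in WT PEG 2 h. Os.22086.1.S1_at had 9.83 in RNAi 0 h and 13.27 in WT 0 h, with 7.61 in RNAi PEG 2 h and 11.42 in WT PEG 2 h. Each of these 4 kept the same order of genotypes at both times. The limits of 6 and 8 that define the class of 18 were chosen after the values had been seen.

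**Figure D1:**
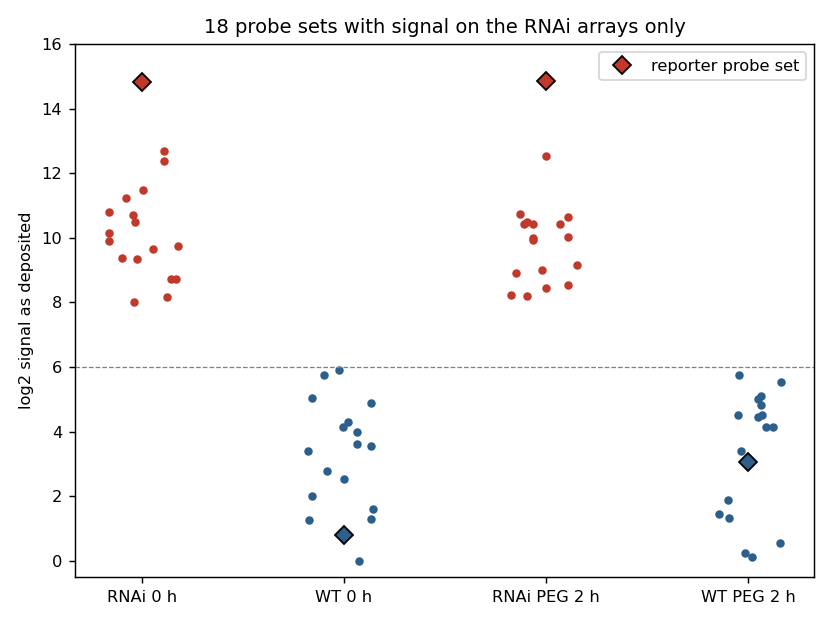
Log2 signal as deposited (y axis) of the 18 probe sets with at least 8 on both RNAi arrays and under 6 on both WT arrays, by array (x axis), 1 point per probe set. The diamond is the reporter probe set, at 14.81 in RNAi 0 h and 0.79 in WT 0 h, and the dashed line marks the floor of 6.

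Before PEG, most rice probe sets differed by less than 2-fold between the RNAi line and WT after the floor. Of 57258 rice probe sets, 1045 (1.83%) were over 2-fold higher in RNAi 0 h and 635 (1.11%) were over 2-fold lower. Among the 26225 probe sets above 6 on at least 1 of the 0 h arrays these shares were 3.98% higher and 2.42% lower, and the median difference was 0.01. Differences of over 4-fold were found for 124 higher and 30 lower probe sets, and differences of over 16-fold for 14 higher and 0 lower probe sets. The lowest difference, -3.72, was 13.1-fold. A band of 0.1 on either side of the 2-fold limit held 220 probe sets just inside and 297 just outside it on the higher side, and 188 just inside and 269 just outside it on the lower side. The split between higher and lower depends on the scaling of the arrays. Higher probe sets made up 62.2% of those called with the deposited scaling. The share was 59.3% when scaled to the median of probe sets of at least 8, 57.1% with quantile normalization and 55.0% when scaled to the hybridization controls. It was 46.6% when both arrays were set to the same median of all rice probe sets. That median, 5.44 in RNAi 0 h and 5.32 in WT 0 h, lies under the floor of 6. Between the PEG 2 h arrays, with the deposited scaling, 1123 probe sets passed the 2-fold limit upward and 509 downward. With 1 array per condition, whether the genotypes were closer before PEG than at 2 h was not tested.

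**Figure D2:**
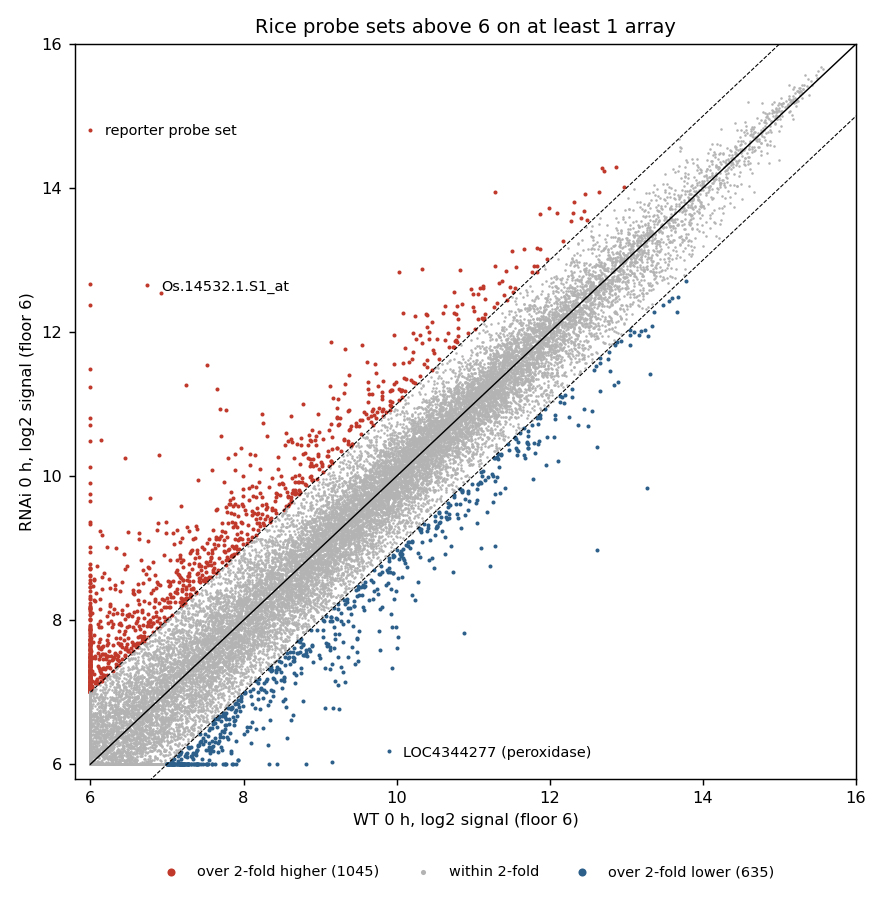
Log2 signal of RNAi 0 h (y axis) against WT 0 h (x axis), both with a floor of 6, for the 26225 rice probe sets above 6 on at least 1 array. The solid line marks equal signal and the dashed lines 2-fold, and the 1045 probe sets above the upper line spread further from it than the 635 below the lower line.

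The share called depended on signal. It was highest for probe sets with a mean signal of 7 to 8 (7.72% higher and 3.65% lower), where the differences had a standard deviation across probe sets of 0.69. It was lowest at a mean signal of 13 or more (0.829% higher and 0.276% lower), where that standard deviation was 0.33. A difference of the same size therefore stands out more among bright genes than among dim ones. Of the 180 genes with several probe sets of which at least 1 was called higher, 32 had all their probe sets called, and of the 190 remaining probe sets 95 had the same direction, 22 the opposite and 73 no difference. Of the 125 such genes with a probe set called lower, 12 had all called, and of the 158 remaining probe sets 102 had the same direction, 24 the opposite and 32 no difference.

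At the level of genes, 575 of 17905 (3.21%) were higher and 301 (1.68%) lower in the RNAi line. Among the 2457 genes with a name, 105 (4.27%) were higher and 39 (1.59%) lower. The counts for gene groups below are to be read against these shares.

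Among the named genes with the highest difference, *HSP26.7*, a small heat shock protein gene, had a deposited signal of 9.33 in RNAi 0 h, against 1.26 in WT 0 h, a difference of 3.33 after the floor. It was the sole heat shock protein gene of 27 on its list over 2-fold higher at 0 h. *HOS66*, a KNOX-type homeobox gene, had 9.23 in RNAi 0 h and 6.13 in WT 0 h. *CRSH2*, which encodes a calcium-activated enzyme that makes the plastid alarmone ppGpp, was the brightest gene of this group, at 13.94 in RNAi 0 h and 11.28 in WT 0 h, a 6.33-fold difference. Its relatives *CRSH1* and *CRSH3* differed by 0.53 and by 0, the second being under 6 on both arrays. *EIL1B*, a relative of the ethylene response factor EIN3, had 11.01 in RNAi 0 h and 8.77 in WT 0 h. *NSHB2*, a non-symbiotic haemoglobin gene, had 12.23 in RNAi 0 h and 10.24 in WT 0 h. *APY3*, an apyrase gene, had 12.56 in RNAi 0 h and 10.75 in WT 0 h. These last signals lie well above the dim range in which probe sets scattered most.

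Dimmer genes also stood among the 15 highest. *4CLL7*, a gene similar to coumarate-CoA ligases, had 8.71 in RNAi 0 h and 6.45 in WT 0 h, and *ILL6*, named for hydrolases that free auxin from amino acid conjugates, had 8.19 in RNAi 0 h and 6.25 in WT 0 h. *HAK13*, a potassium transporter gene, differed by 1.84, and *NIP1-1*, an aquaporin gene, by 1.8. LOC4347685, annotated only as a cellulase, had 9.82 in RNAi 0 h and 8.0 in WT 0 h. *BURP3*, of the plant-specific BURP domain family, had 8.83 in RNAi 0 h and 7.04 in WT 0 h.

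The gene with the lowest difference was LOC4344277, annotated only as a peroxidase, with 6.18 in RNAi 0 h and 9.89 in WT 0 h. It stayed apart at 2 h, with 4.48 in RNAi PEG 2 h and 9.0 in WT PEG 2 h before the floor. Of the other 14 lowest named genes, 7 are known or named for work in the plastid and 2 are cytokinin response regulators, and both groups are described below. *HAK1*, a high-affinity potassium transporter gene, had 9.39 in RNAi 0 h and 10.75 in WT 0 h, with both of its probe sets lower. *HOX33*, a homeobox-leucine zipper gene, had 7.21 in RNAi 0 h and 8.53 in WT 0 h. *CYCA2-1*, an A-type cyclin gene, was at the floor in RNAi 0 h and had 7.40 in WT 0 h.

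**Figure D3:**
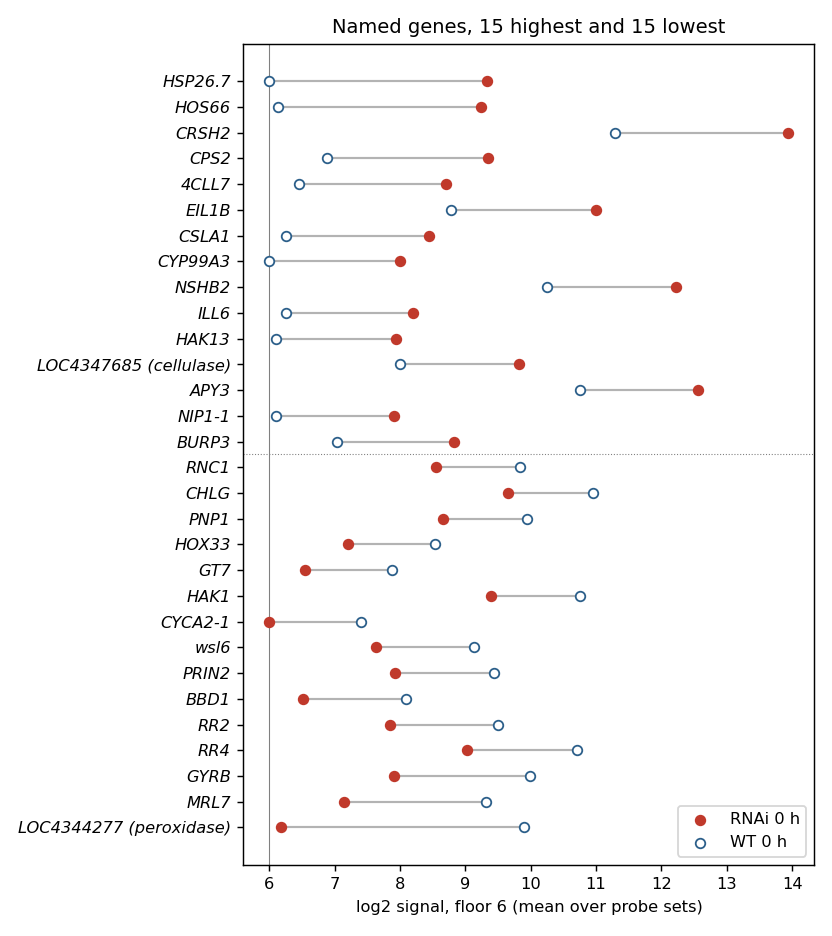
Log2 signal with a floor of 6 (x axis) of 30 named genes, the 15 most above and the 15 most below WT, for RNAi 0 h (filled) and WT 0 h (open), 1 array each. *HSP26.7* is at the top with 9.33 against the floor and LOC4344277 at the bottom with 6.18 against 9.89.

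The ribosomal protein genes found by name, which need not be all of this class on the array, were lower in the RNAi line at 0 h without exception. All 26 had a lower signal in RNAi 0 h than in WT 0 h, by a median of 0.68 on the log2 scale, beside a median difference of 0.01 over the 14160 genes above 6 on at least 1 array. Only 3 of them were over 2-fold lower, so the shift is broad and modest. *RPL9* had 12.28 in RNAi 0 h and 13.36 in WT 0 h. *RPS26* had 10.66 in RNAi 0 h and 11.67 in WT 0 h. *RPS3A* had a mean of 10.53 in RNAi 0 h and 11.55 in WT 0 h, and each of its 4 probe sets was lower in RNAi 0 h, by 0.80 to 1.28. The 8 genes for translation initiation and elongation factors, which act with the ribosome, had a median difference of -0.09, and the highest of them, *eIF-4A-3*, had 12.25 in RNAi 0 h and 12.18 in WT 0 h. The list of ribosomal proteins and translation factors as a whole had a median of -0.65 and kept a median between -0.77 and -0.61 under all 10 alternative settings. At 2 h of PEG, on the other pair of arrays, 23 of the 26 ribosomal protein genes were again lower in RNAi, with a median of -0.39.

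Nuclear genes that build and run the plastid were also lower in part. The list of plastid gene expression, protein import and chlorophyll synthesis was drawn up after the values had been seen, so its count is no independent evidence of a direction. It held 29 genes, of which 8 were over 2-fold lower and 1, *CRSH2*, over 2-fold higher, with a median of -0.60. *MRL7*, which encodes a plastid protein needed for plastid transcription, had 7.15 in RNAi 0 h and 9.32 in WT 0 h. *GYRB*, a subunit of the DNA gyrase of organelles, had 7.91 in RNAi 0 h and 9.99 in WT 0 h, and *GYRA*, the other subunit, had 6.75 in RNAi 0 h and 7.41 in WT 0 h. *PRIN2*, a component of the plastid transcription machinery, had 7.92 in RNAi 0 h and 9.43 in WT 0 h. Each of these was lower in the RNAi line.

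The same direction was seen for genes of plastid RNA processing and of chlorophyll synthesis. *PNP1*, a polynucleotide phosphorylase gene, had 8.66 in RNAi 0 h and 9.95 in WT 0 h, and *RNC1*, a factor for plastid intron splicing, was lower with both of its probe sets, by 1.32 and 1.24. *CHLG*, chlorophyll synthase, had 9.66 in RNAi 0 h and 10.95 in WT 0 h, whereas *CHLD* and *CHLI*, subunits of magnesium chelatase, were within 2-fold at -0.78 and -0.90. *LTD*, which helps to import light-harvesting proteins, had 12.03 in RNAi 0 h and 13.24 in WT 0 h. Genes of the photosynthetic apparatus itself did not share this pattern. None of 9 was called, and their differences lay between -0.39 and 0.18 with a median of 0.12. Several of them, such as *CAB2R* (15.48 in RNAi 0 h and 15.37 in WT 0 h), lie in the brightest range, where few probe sets were called. *RBCS1* was under 6 on both arrays, and the lists were not matched for signal. At 2 h the plastid list had a median of -0.06, with 2 genes over 2-fold higher and 1 lower.

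Cytokinin response regulators of type A, short-lived brakes on cytokinin signalling whose transcripts rise when the hormone is present, were lower before PEG. Of the 6 measured, 5 were above 6 and all 5 were lower in RNAi 0 h, 4 of them over 2-fold. *RR4* had 9.03 in RNAi 0 h and 10.71 in WT 0 h. *RR2* had 7.85 in RNAi 0 h and 9.50 in WT 0 h. *RR9* had 10.48 in RNAi 0 h and 11.59 in WT 0 h, and *RR6* had 10.45 in RNAi 0 h and 11.46 in WT 0 h. At 2 h the order of the genotypes was turned round for all 5. *RR4* then had 10.57 in RNAi PEG 2 h and 9.96 in WT PEG 2 h, and the median of the 6 was 0.37. The 4 type-B regulators, the transcription factors of the pathway, had a median difference of 0.14 at 0 h with none called. This family was singled out after its values had been seen. No other gene of the 45 on the cytokinin, gibberellin and brassinosteroid list was over 2-fold different at 0 h.

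Cell wall genes lay on the other side. Of 66 genes on the list of expansins and cell wall enzymes, 9 were over 2-fold higher in RNAi 0 h and 0 over 2-fold lower, and of the 39 with a difference other than 0, 35 were positive. Cellulose synthase genes (*CESA*), whose products form the complexes that spin cellulose into the wall, accounted for 5 of the 9. All 9 *CESA* genes measured had a higher mean value in RNAi 0 h, by a median of 1.02. *CESA9* had 7.96 in RNAi 0 h and 6.23 in WT 0 h. *CESA4*, of the secondary wall, had 8.68 in RNAi 0 h and 7.49 in WT 0 h. With a floor of 8 the difference was 0 for *CESA9* and 0.68 for *CESA4*, whereas *CESA6* and *CESA8* were above 8 on both 0 h arrays. *CESA6*, *CESA8* and *CESA3* differed by 1.16, 1.03 and 1.02, and *CESA2*, the dimmest, by 0.18. At 2 h, 8 of the 9 were again higher in RNAi, with a median of 0.83. *CESA5* alone was lower then, by 0.27.

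The remaining 4 called wall genes have different substrates. *CSLA1*, of the cellulose synthase-like family that makes mannans, had 8.45 in RNAi 0 h and 6.25 in WT 0 h. Its difference was 0.45 with a floor of 8, and 0.14 at 2 h with the floor of 6. *XTH8*, a gene for an enzyme that cuts and rejoins xyloglucan, had 12.60 in RNAi 0 h and 10.97 in WT 0 h, and it stayed higher at 2 h by 1.24. The wall-loosening expansin genes *EXPB11* and *EXPB4* differed by 1.16 and 1.07. Of 29 expansin and expansin-like genes in all, 16 did not differ after the floor, 12 were higher and 1 was lower in RNAi 0 h.

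Auxin genes showed 6 members over 2-fold higher and 0 over 2-fold lower among 60, with a median of 0.21. Of these 6, 4 belong to the Aux/IAA family of transcriptional repressors. *IAA25* had 10.31 in RNAi 0 h and 8.98 in WT 0 h, and *IAA2* had 10.88 in RNAi 0 h and 9.57 in WT 0 h. *IAA9* and *IAA30* differed by 1.08 and 1.02. The auxin response factor gene *ARF1* had 9.41 in RNAi 0 h and 8.21 in WT 0 h, and *PIN3A*, an auxin efflux carrier gene, had 9.34 in RNAi 0 h and 8.11 in WT 0 h. Over all 26 *IAA* genes, 17 were higher and 4 lower at 0 h with a median of 0.35, and 20 were higher and 3 lower at 2 h with a median of 0.41. The 9 *GH3* genes, which encode enzymes that conjugate auxin or jasmonate, held no called member.

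**Figure D4:**
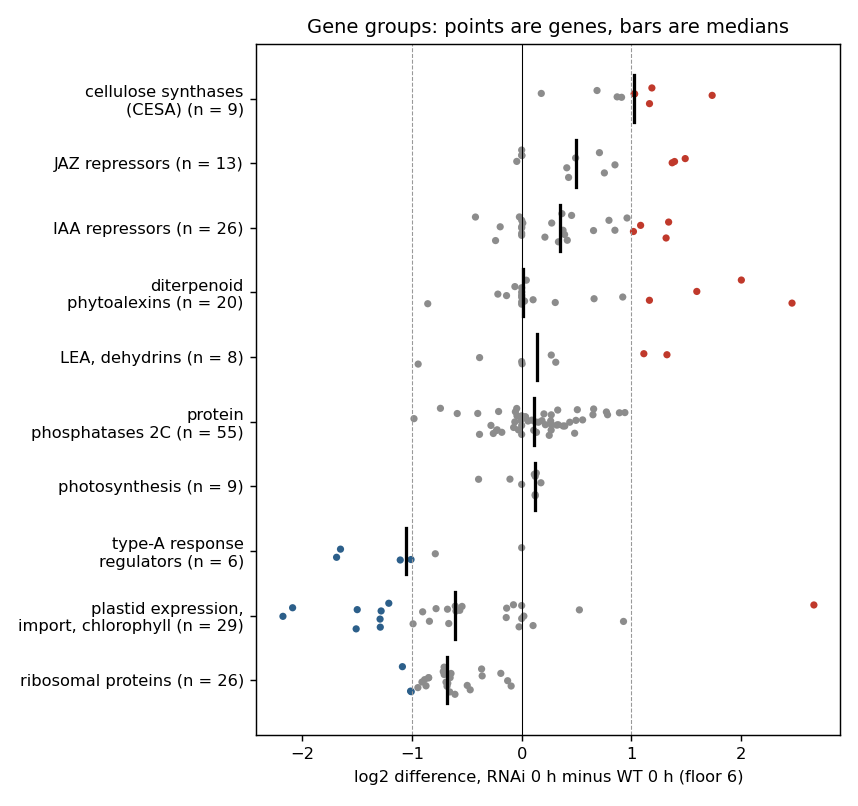
Log2 difference, RNAi 0 h minus WT 0 h with a floor of 6 (x axis), for the genes of 10 groups (y axis), 1 point per gene, with the median as a bar and 2-fold as dashed lines. The 26 ribosomal protein genes all lie below 0 and the 9 *CESA* genes all above 0.

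JAZ proteins repress jasmonate responses, and their genes are themselves switched on by jasmonate. Of 13 genes of the *JAZ* and related TIFY group, 3 were over 2-fold higher in RNAi 0 h, 10 were positive and 1 negative, with a median of 0.49. *JAZ12* had 13.15 in RNAi 0 h and 11.66 in WT 0 h. *JAZ13* had 11.02 in RNAi 0 h and 9.63 in WT 0 h, and *JAZ9* had 9.35 in RNAi 0 h and 7.98 in WT 0 h. At 2 h the genotypes were level, with a difference of 0.05 for *JAZ13* and 0.19 for *JAZ12*, and the median over the 13 was -0.09. The lipoxygenase gene *LOX5*, of the lipid oxidation steps that lead to jasmonates, had 11.79 in RNAi 0 h and 10.74 in WT 0 h. The other 29 genes of the 33 on the jasmonate list were within 2-fold.

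Defence metabolism held a small set of higher genes. Rice makes diterpenoid phytoalexins, antimicrobial compounds, through copalyl diphosphate synthases, kaurene synthase-like enzymes and cytochrome P450 enzymes, and 4 of 20 genes on this list were over 2-fold higher in RNAi 0 h, with a median of 0.01. *CPS2*, at the entry of the pathway, had 9.35 in RNAi 0 h and 6.88 in WT 0 h. *KS6* had 7.52 in RNAi 0 h and 6.35 in WT 0 h. *CYP701A8* had 9.97 in RNAi 0 h and 8.38 in WT 0 h, and *CYP99A3* had 8.0 in RNAi 0 h and 5.85 in WT 0 h. *CYP76M7* went the other way, at 8.16 in RNAi 0 h and 9.01 in WT 0 h. *PBZ1*, a pathogenesis-related gene that answers to probenazole, had 12.37 in RNAi 0 h and 10.63 in WT 0 h, the single called gene of 13 pathogenesis-related and chitinase genes.

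In phenylpropanoid synthesis, 3 of 17 genes (*4CL2*, *PAL* and *CAD6*) passed 2-fold on the higher side and 1 (*CAD8A*) on the lower side. *4CL2*, a coumarate-CoA ligase gene, had 9.49 in RNAi 0 h and 8.13 in WT 0 h. *CAD8A*, of the alcohol dehydrogenase step toward lignin, had 5.45 in RNAi 0 h and 7.11 in WT 0 h. The gene annotated *PAL*, phenylalanine ammonia-lyase, had a mean difference of 1.19, but its 5 probe sets disagreed, from 0.27 for the brightest to 2.08. Probe sets that can read several transcripts carried the call, since the difference was 0.36 without them. *GST1*, a glutathione S-transferase gene, had 7.64 in RNAi 0 h and 6.16 in WT 0 h, the single called gene of 6.

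Most of the genes of ABA turnover and signalling that were found by name differed little before PEG. The lists lacked the silenced gene and any gene for NCED, an enzyme the paper calls a key regulatory step of ABA synthesis. *PYL11* was the only PYL receptor gene on them. Of 6 genes of synthesis and breakdown, 1 was over 2-fold higher. It was *ABA8OX1*, a sister of the silenced gene, with 12.91 in RNAi 0 h and 11.83 in WT 0 h, a difference of 1.08 that was 0.96 when the arrays were scaled to the same median. By PCR the paper found this gene hardly detectable in seedlings, unlike its high array signal, and the reason was not tested. Another sister, *ABA8OX2*, had 7.75 in RNAi 0 h and 7.2 in WT 0 h. The phytoene synthase genes *PSY1*, *PSY2* and *PSY3*, of the carotenoid steps, lay between -0.18 and 0.29. Of 14 genes of perception and signalling, only *BZIP23*, a transcription factor of the ABA response, passed 2-fold, at 11.47 in RNAi 0 h and 10.47 in WT 0 h. Its difference was 0.88 to 0.99 under the 4 alternative scalings. None of the 55 protein phosphatase 2C genes was called, with a median of 0.11 and a range of -0.98 to 0.94. The lowest, *PP2C68*, had 7.43 in RNAi 0 h and 8.41 in WT 0 h, and it passed 2-fold under each of the 4 alternative scalings, with its lowest value at -1.10.

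Among ABA-responsive protective genes, *RAB21*, a dehydrin gene, had a mean of 8.31 in RNAi 0 h and 6.98 in WT 0 h, with both probe sets higher. *RAB16C*, a second dehydrin gene, had 8.43 in RNAi 0 h and 7.32 in WT 0 h. These were the called genes of 8 on the LEA and dehydrin list. *LEA19* was lower, at 9.35 in RNAi 0 h and 10.30 in WT 0 h, within 2-fold. At 2 h all 8 were higher in RNAi, with a median of 0.94 beside 0.14 at 0 h. Of the genes that the study took on to PCR, 8 had a probe set found by its identifier, and at 0 h they differed by -0.94 (*LEA19*) to 1.11 (*RAB16C*), with the other 6 between -0.38 and 0.57. Among the latter, LOC_Os01g50910 and LOC_Os03g16920 were under 6 on both 0 h arrays, so their difference of 0 is set by the floor. LOC_Os04g49980 had 6.05 in RNAi 0 h and 5.23 in WT 0 h before the floor.

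DREB factors drive cold and dehydration responses. Of 12 DREB and ERF genes, 10 were higher and 0 lower in RNAi 0 h. For *DREB1C* and *DREB1E*, higher by 0.11 and 0.24, the WT 0 h value was at the floor. *DREB1A* alone passed 2-fold, at 11.55 in RNAi 0 h and 9.96 in WT 0 h. The paper gives the name DREB1A to Os06g03670, the locus it took on to PCR. That locus is read by a different probe set, with 6.68 in RNAi 0 h and 6.12 in WT 0 h, within 2-fold. All 6 WRKY genes were higher at 0 h, within 2-fold, with a median of 0.44, and 5 of the 6 were lower at 2 h. *NAC071* had a mean of 9.21 in RNAi 0 h and 8.03 in WT 0 h, the single called gene of 8 NAC genes, and its brightest probe set differed by 0.92. *SAP1*, a stress-associated zinc finger gene, had 12.83 in RNAi 0 h and 11.83 in WT 0 h. Of 78 calcium-decoding genes, 5 passed 2-fold on the higher side and 0 on the lower side (36 were positive and 30 negative), led by the kinase gene *CIPK14* (14.29 in RNAi 0 h and 12.87 in WT 0 h) and the calmodulin-like gene *CML16* (13.16 in RNAi 0 h and 11.83 in WT 0 h). None of 15 antioxidant enzyme genes was called, with 7 higher and 8 lower in RNAi 0 h, the lowest being the ascorbate peroxidase gene *APX5* at -0.82.

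In contrast to *HSP26.7*, heat shock protein genes as a group did not differ at 0 h. The median over 27 was 0, with 10 higher and 11 lower, and *HSP17.4* had 6.68 in RNAi 0 h and 7.65 in WT 0 h. At 2 h, 13 of the 27 were over 2-fold higher in RNAi and the median was 0.96, with *HSP17.4* at 13.81 in RNAi PEG 2 h and 10.97 in WT PEG 2 h. None of the 20 heat stress factor genes was called at 0 h by the mean of their probe sets. *HSF25* came nearest together with *HSF07*, at 0.80 each, and its 2 probe sets differed by 1.68 and by -0.09.

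Of 24 potassium and sodium transport genes, *HAK13*, *HAK27* and *HAK11* passed 2-fold on the higher side and *HAK1* on the lower side. Of 25 aquaporin genes, 3 were over 2-fold higher, among them *PIP2-6* of the plasma membrane with 11.37 in RNAi 0 h and 10.10 in WT 0 h. Of 59 metal genes, 2 metallothionein genes were higher, *MT4A* with 14.28 in RNAi 0 h and 12.68 in WT 0 h and *MT4C* with 7.2 in RNAi 0 h and 5.40 in WT 0 h. On the same list 2 uptake genes were lower, the iron transporter *IRT1* with 7.48 in RNAi 0 h and 8.66 in WT 0 h and the manganese transporter *NRAMP5* with 5.68 in RNAi 0 h and 7.16 in WT 0 h. *IRT1* is also one of the root markers, and their summed signal is given above. In carbon and nitrogen metabolism, *SUS5*, a sucrose synthase gene, had 8.08 in RNAi 0 h and 6.48 in WT 0 h, *SUS4* had 10.83 in RNAi 0 h and 11.84 in WT 0 h, and *GDH2*, a glutamate dehydrogenase gene, was higher with all 3 probe sets, by 1.33 to 1.92.

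Some genes that time flowering were over 2-fold higher. *Hd3a*, the rice florigen made in leaves, had 7.49 in RNAi 0 h and 5.76 in WT 0 h. *DTH8*, a CCAAT-binding subunit that acts on heading date, had 7.88 in RNAi 0 h and 6.65 in WT 0 h. These were the called genes of 13 on the clock and photoperiod list, where 9 were positive and 4 negative with a median of 0.07. *MADS14*, which acts downstream of florigen, had a mean of 8.05 in RNAi 0 h, against 6.59 in WT 0 h after the floor, and all 4 of its probe sets were higher, by 0.87 to 1.98. *MADS18*, a close relative, had 11.62 in RNAi 0 h and 10.40 in WT 0 h. Of these 4 genes, only *MADS18* was above 8 on both 0 h arrays. With a floor of 8 the difference was 0 for *Hd3a* and *DTH8* and 0.28 for *MADS14*. On their list of 73 homeobox, MYB and MADS genes, 3 passed 2-fold on the higher side and 1 on the lower side with a median of 0, and the floral regulators *MADS50* and *MADS56* had differences of -0.31 and -0.27. *Hd3a*, *DTH8*, *MADS14* and *MADS18* were chosen for their values, and each of these 4 genes was also higher in RNAi at 2 h, by 0.63 to 1.02. *MADS15*, also of this family, was under 6 on all arrays by the mean of its 4 probe sets. *MADS14*, *MADS18* and *MADS4* are members of the panicle and seed marker list, whose summed signal was higher in RNAi 0 h as given above, and the part of other tissue in these values was not tested.

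Of the groups without a strong lean, histones, cyclins and replication genes had 1 of 74 called (*CYCA2-1*, lower), phosphate starvation genes 0 of 24 and seed storage protein genes 0 of 10. Lipid transfer and lipid metabolism genes had 0 of 11 called, mitogen-activated protein kinases 1 of 16 (*MPK10*, higher by 1.04) and resistance receptors and kinases 1 of 18 (*RLCK85*, 7.19 in RNAi 0 h and under 6 in WT 0 h). Unlike these groups, the list of 11 ethylene genes did lean higher, with a median of 0.25. On it, *EIL1B* and the receptor gene *ERS2* (8.40 in RNAi 0 h and 7.11 in WT 0 h) were over 2-fold higher. Both class III peroxidase genes found by name were close to the floor.

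The study's supplement gives loci and descriptions for further probe sets that lack a gene symbol. It lists probe sets for their PEG response on these arrays, so they are not a sample of the genome. Of 182 such probe sets, the highest at 0 h was that of LOC_Os01g21120, an ethylene-responsive factor-like protein, with 8.17 in RNAi 0 h and 5.12 in WT 0 h. LOC_Os01g65210, a peptide transporter, had 9.85 in RNAi 0 h and 8.33 in WT 0 h. LOC_Os08g30080, an oxidase of the last step of ethylene synthesis, had 7.13 in RNAi 0 h and 5.88 in WT 0 h. The lowest, LOC_Os01g43080, described as an exonuclease, had 6.65 in RNAi 0 h and 7.60 in WT 0 h, within 2-fold.

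The 2 h arrays show how far these differences were also present in other samples. Of the 1045 probe sets higher at 0 h, 858 (82.1%) were higher in RNAi at 2 h as well and 158 were lower, with a median 2 h difference of 0.65. Over 2-fold higher at both times were 364, which is 34.8% of those higher at 0 h and 32.4% of those higher at 2 h, beside 1.96% of all rice probe sets higher at 2 h. Of the 635 lower at 0 h, 422 (66.5%) were lower at 2 h as well and 160 were higher, and 93 were over 2-fold lower at both times. These are 14.6% of those lower at 0 h and 18.3% of those lower at 2 h, beside 0.889% of all probe sets lower at 2 h. The shares of 1.96% and 0.889% are over all 57258 rice probe sets. Of these, 31033 were at or under 6 on both 0 h arrays and could not be called at 0 h. Both shares are thus lower than they would be among detected probe sets alone. Leaving out probe sets with no difference at 2 h, the same direction was seen for 84.4% of those higher and 72.5% of those lower at 0 h, beside 63.4% of all 23984 probe sets with a difference other than 0 at both times. Of the 124 probe sets over 4-fold higher at 0 h, 119 were also higher at 2 h, and of the 30 over 4-fold lower, 25 were also lower.

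Of the 105 named genes higher at 0 h, 93 were higher at 2 h and 9 lower, with 37 over 2-fold higher and 0 over 2-fold lower. Of the 39 named genes lower at 0 h, 25 were lower at 2 h and 12 higher, with 3 over 2-fold lower and 1, *BURP2*, over 2-fold higher. *HSP26.7* had a deposited signal of 12.53 in RNAi PEG 2 h and 4.46 in WT PEG 2 h, with WT under the floor at both times. *CRSH2* was nearly constant, with 13.78 in RNAi PEG 2 h and 11.62 in WT PEG 2 h. *MRL7* had 7.19 in RNAi PEG 2 h and 8.53 in WT PEG 2 h. *ILL6* and *NIP1-1* no longer differed, at -0.05 and -0.10.

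**Figure D5:**
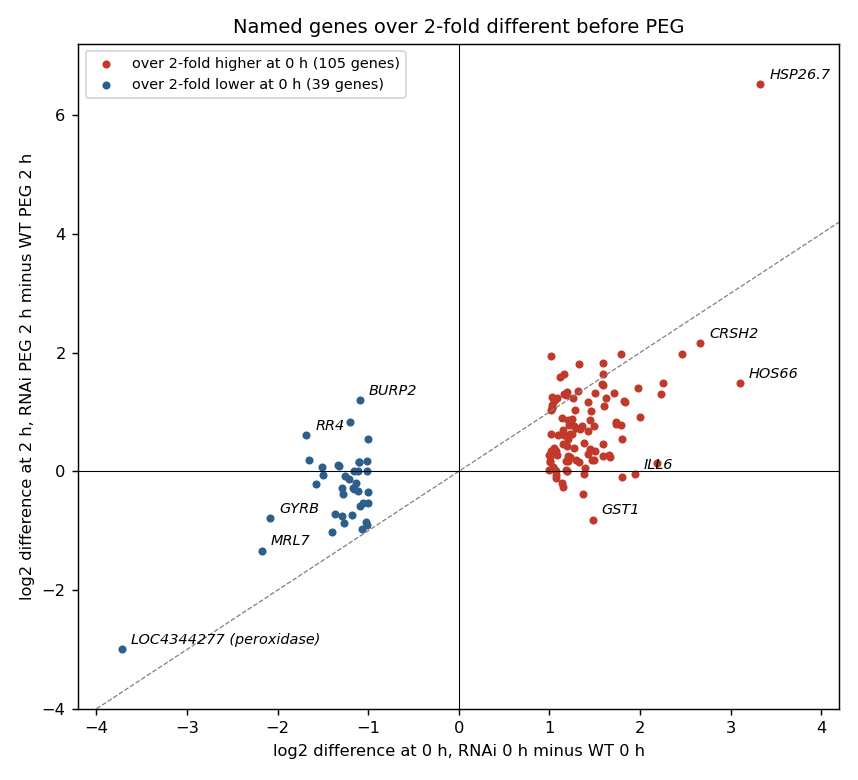
Log2 difference of RNAi PEG 2 h minus WT PEG 2 h (y axis) against RNAi 0 h minus WT 0 h (x axis), with a floor of 6, for the 105 named genes over 2-fold higher and the 39 over 2-fold lower at 0 h, with the line of equal difference dashed. Of the higher genes 93 lie above 0 at 2 h, and of the lower genes 25 lie below 0.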

How the data were processed

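Expression was measured in seedling leaves with 4 Affymetrix Rice Genome Arrays, 1 per condition. RNA was isolated with TRIzol, purified on RNeasy columns, labelled with a 3' IVT kit and hybridized. The authors used the GCOS software for collection and normalization and deposited the values as log2 signal. The submitters' processing notes name MAS5 and give no version. The 123 control probe sets were left out, signals under 6 were raised to 6, and WT 0 h was subtracted from RNAi 0 h with Python 3.11.15, numpy 2.4.6 and pandas 2.3.3. The functions were tested on simulated data.

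Of 57258 rice probe sets, 34727 had no gene in the platform annotation, 95 had several and 22436 had 1, with names updated through the RefSeq gene table. The genes named were the 15 highest and 15 lowest, up to 4 called members of each of 37 gene lists and 3 marker lists (1 or 2 where none was called), the probe sets the study took to PCR, and the 5 highest and 5 lowest that its supplement annotates. Names beyond these were chosen after their values were seen, and some of the genes this gives were left out for length. Members and lists were chosen with earlier results of these data known, and 2 lists (plastid genes and response regulators) after their values were seen. List members were found by symbol or synonym, so a gene under another name was missed. Promoter motifs were not run, as no sequence table was used. Because each condition had a single array, no p-value, standard error or replicate spread is given, and precision is limited by how few arrays there are. Settings tried were floors of 5 and 8 or none, a minimum of 6 on both arrays, 4 scalings, no probe sets that can read several transcripts, the brightest probe set per gene, counting genes, and 1.5-fold and 3-fold limits.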

Additional observations from a re-analysis of the deposited data

Results flagged for a closer look

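The reporter probe set RPTR-Os-K01193-1_at lies outside the genes of rice, and its signal of 14.81 on the RNAi 0 h array stood far above the 0.79 of WT 0 h and above the other 63 reporter probe sets, which reached at most 5.87 in RNAi 0 h and 6.18 in WT 0 h.

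At 2 h, 4 named genes called at 0 h had the opposite direction, by over 0.5, and differed by over 2-fold between the times. *BURP2*, a BURP domain gene, was lower at 0 h by 1.10 and had a 2 h difference of 1.2, with its 2 probe sets at -2.02 and -0.17 at 0 h. *RR4* had -1.69 at 0 h and 0.61 at 2 h, and *RR6* had -1.01 at 0 h and 0.54 at 2 h, both response regulators of type A. *GST1* had 1.48 at 0 h and -0.82 at 2 h. With 1 array per condition the difference between the times was not tested for any of these genes.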

How the results depend on the processing

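No paired analysis was possible because each condition has 1 array, and for the same reason no replicate could be left out. The count of probe sets over 2-fold higher, 1045, was 10549 without a floor, 1957 with a floor of 5, 459 with a floor of 8, 2956 at 1.5-fold, 299 at 3-fold and 575 when genes were counted. The count lower, 635, was 8623 without a floor, 1222 with a floor of 5, 314 with a floor of 8, 2639 at 1.5-fold, 90 at 3-fold and 301 when genes were counted. The scalings kept both counts within 1.5 times (819 to 996 higher and 684 to 937 lower), and scaling to the median of all rice probe sets took the median of the probe sets above 6 to -0.10, beside 0.01 as deposited. Without a floor, the list median was 1.0 for pathogenesis-related genes, -2.30 for the 2 class III peroxidases, 0.63 for cell wall genes, 0.83 for panicle and seed markers and -0.79 for response regulators. With at least 6 on both arrays and no floor it was 0.81 for LEA genes, 0.78 for pathogenesis-related genes, 0.71 for cell wall genes and 0.64 for panicle and seed markers. Fewer genes remain in that setting. Of 86 named genes over 2-fold, 35 were within 2-fold with a floor of 8, which raises dim signals, and 14 under at least 1 other alternative, *BZIP23*, *SWEET14*, *MADS4* and *SAP1* among them. None of the 106 named genes changed direction past 2-fold. Signals near 6 limit what can be said of dim genes.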
